A study of Homo sapiens with 4 samples.

Results

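The metallothionein and zinc handling genes examined here were MT1E, MT1F, MT1G, MT1H, MT1M, MT1X and MT2A, together with MTF1, SLC30A1 and SLC39A10. They were chosen by name, with earlier results of these data known. They are 10 of the 19775 genes that the array reads with at least 1 probe set of a single gene symbol. Of the 54675 probe sets on the array, 18 cover them. The metallothioneins account for 7 of these genes and 11 of these probe sets. The RNA of Huh7 and Hep3B cells, both established human hepatocellular carcinoma (HCC) lines, was profiled with Affymetrix U133 Plus 2.0 arrays. In each line, ATO (arsenic trioxide, an arsenic compound used as a drug) was given at 3 μM for 7 days, and negative control (NC) cells received the solvent DMSO. Each line therefore had 1 ATO profile and 1 NC profile, 4 profiles in all, which limits the precision. The question addressed is how ATO changed gene expression in either line, asked here of the genes that bind, sense and move zinc.

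Metallothioneins are small proteins rich in cysteine whose thiol groups bind zinc, copper, cadmium and arsenic, and liver is known for making large amounts of them. Their genes lie side by side on chromosome 16 and are switched on by MTF1, a zinc-sensing transcription factor that binds short DNA sequences known as metal response elements. The exporter SLC30A1 (ZnT1), which moves zinc out of the cytosol, is another known MTF1 target, whereas the importer SLC39A10 (ZIP10) brings zinc into the cell and is known, from the mouse, to be repressed by MTF1.

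Promoters were available for MT2A, MT1H, MT1X, MTF1, SLC30A1 and SLC39A10, that is for 6 of the 10 genes, in 7 windows of 250 bases before and 50 bases from the annotated start onward (RefSeq, GRCh38.p14). SLC39A10 had 2 windows. The promoters of the metallothioneins named most often below and of the exporter are shown because they differ in how many metal response element cores they hold. Capitals mark each match, on either strand, to the metal response element core (TGCACNC or TGCGCNC) and to the antioxidant response element core (TGACNNNGC).
MT2A promoter, chr16:56608334-56608633, plus strand: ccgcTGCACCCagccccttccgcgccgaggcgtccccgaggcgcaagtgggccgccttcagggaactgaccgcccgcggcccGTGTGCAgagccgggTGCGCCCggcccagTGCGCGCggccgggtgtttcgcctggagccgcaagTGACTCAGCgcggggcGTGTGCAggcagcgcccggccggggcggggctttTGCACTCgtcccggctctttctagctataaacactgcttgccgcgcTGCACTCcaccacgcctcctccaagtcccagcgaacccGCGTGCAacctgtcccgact
MT1X promoter, chr16:56682220-56682519, plus strand: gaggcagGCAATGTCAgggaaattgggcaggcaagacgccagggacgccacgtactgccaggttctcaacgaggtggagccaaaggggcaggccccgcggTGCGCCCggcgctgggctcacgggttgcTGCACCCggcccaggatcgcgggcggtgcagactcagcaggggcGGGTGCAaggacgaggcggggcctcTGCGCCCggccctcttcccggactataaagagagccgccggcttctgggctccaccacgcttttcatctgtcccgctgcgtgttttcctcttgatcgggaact
MT1H promoter, chr16:56669564-56669863, plus strand: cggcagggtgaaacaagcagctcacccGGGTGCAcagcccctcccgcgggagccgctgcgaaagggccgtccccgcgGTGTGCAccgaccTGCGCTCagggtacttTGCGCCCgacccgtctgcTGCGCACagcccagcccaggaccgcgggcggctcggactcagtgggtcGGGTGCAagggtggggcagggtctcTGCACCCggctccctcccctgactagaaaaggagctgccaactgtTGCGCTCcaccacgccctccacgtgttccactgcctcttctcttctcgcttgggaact
SLC30A1 promoter, chr1:211579112-211579411, minus strand: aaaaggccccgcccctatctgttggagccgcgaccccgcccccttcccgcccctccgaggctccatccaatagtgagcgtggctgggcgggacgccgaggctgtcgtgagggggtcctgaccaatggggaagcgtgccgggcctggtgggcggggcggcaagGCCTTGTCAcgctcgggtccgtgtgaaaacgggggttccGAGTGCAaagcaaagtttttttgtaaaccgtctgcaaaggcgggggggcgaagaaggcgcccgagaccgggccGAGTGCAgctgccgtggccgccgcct
The metal response core was found 8 times in the MT2A window, 8 times in the MT1H window, 4 times in the MT1X window and 2 times in the SLC30A1 window. No match was present in the MTF1 window, and the 2 SLC39A10 windows held 0 and 1. Among 35116 promoter windows of the same length, 29.6% held at least 1 match, 8.60% at least 2, 0.601% at least 4 and 0.0199% at least 8. With the start base counted as 0, a match on the forward strand ended at position -47 in MT1X, at -47 in MT1H and at -48 in MT2A. A further match ended at position -2 in both MT2A and MT1H. The antioxidant core was found once each in MT2A, MT1X and SLC30A1, against 13.3% of all windows with at least 1. Matches are descriptions of the letters and not evidence of binding.

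**Figure D1:**
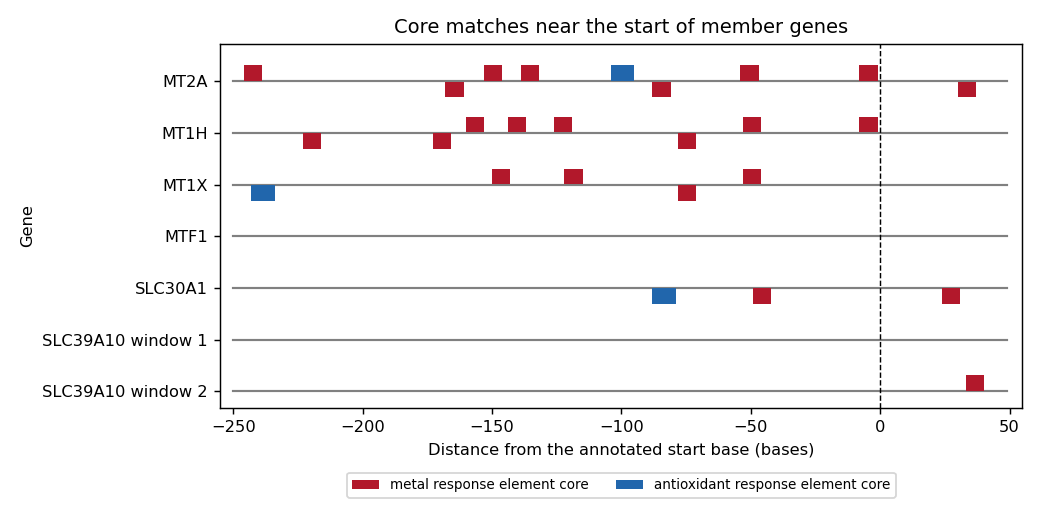
Matches to the metal response element core (red) and the antioxidant response element core (blue) in each promoter window, by distance from the annotated start base in bases, with forward-strand matches above the line and reverse-strand matches below it. MT2A and MT1H carry 8 metal response cores each, MT1X carries 4, SLC30A1 carries 2, and MTF1 carries none.

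The deposited values were intensities on a linear scale, with a median between 15.8 and 16.3 in the 4 profiles. Across the 54613 gene probe sets the median log2 ratio of ATO over NC was 0.02 in Huh7 and 0.02 in Hep3B. The poly-A controls, RNAs added before labeling, had median log2 ratios of -0.24 and -0.23 over 27 probe sets, and the hybridization controls 0.07 and 0.10 over 18. The 3′ over 5′ log2 ratio lay between 2.06 and 2.14 for ACTB and between 0.14 and 0.27 for GAPDH in the 4 profiles. Differences between ATO and NC in this ratio were no larger than 0.07 in size. Of 10 hepatocyte and HCC markers, 9 were read. SERPINA1, TF and APOB, which hepatocytes secrete, read at least 4026 in all 4 profiles, but other secreted proteins did not. ALB (albumin) read 358 with ATO and 155 in NC in the profiles labeled Huh7, against 10729.9 and 12803 in Hep3B, and TTR (transthyretin) read 32.8 and 48.1, against 1983 and 1704. The profiles labeled Huh7 read AFP, the fetal serum protein that both lines are known to make, at 62.1 with ATO and 91.8 in NC, against 1646 and 3567 in Hep3B. GPC3, a surface marker of HCC, read 32.8 and 29.3 in the profiles labeled Huh7, against 2397 and 3730 in Hep3B. APOA1 also read lower in the profiles labeled Huh7 than in Hep3B, but far above the array median. FGB went the other way and read higher in the profiles labeled Huh7, both with ATO and in NC. The values of ALB, TTR, AFP and GPC3 thus go against the Huh7 label, whereas that of FGB does not follow them. The identity of the line was not tested, the name is kept as labeled, and every value below is given for each line so that Hep3B can be read alone. Markers of other cell types are given for Huh7 and Hep3B in turn. The 4 endothelial markers summed to 40.0 and 35.7 in ATO cells and to 39.3 and 35.6 in NC cells, and the 6 fibroblast or stellate markers to 154 and 136 in ATO cells and to 149.7 and 156 in NC cells, mostly from COL1A1 (54.5 to 76.4) and PDGFRB (40.3 to 58.0), which lay above the array median. The 5 blood markers summed to 290.4 and 93.6 in ATO cells and to 466 and 242 in NC cells. Among them, LYZ (lysozyme) alone passed a threshold in both lines, at 234 and 30.3 in ATO cells against 411 and 176 in NC cells, whereas the leukocyte antigen PTPRC lay below the array median. The part of these differences in the results below was not tested, and in bulk samples fewer expressing cells and less RNA per cell cannot be told apart.

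Of the 11 metallothionein probe sets, 10 read higher after ATO in both lines, the exception being a dim MT1G probe set. The 10 include the dim MT1M probe set, with a ratio of only 1.02 in Huh7. They also include an MT1F probe set near the array median, with a ratio of 1.07 in either line. Of the 11, 6 had ATO over NC ratios above 1.5 in each of the 2 lines (MT1X with 2 probe sets, MT2A, MT1H, MT1F and MT1G), and none was below 0.67 in either line. Over all 18 probe sets of the 10 genes, 6 passed 1.5 in both lines (33.3%), against 289 of the 54613 gene probe sets (0.529%). The genes were chosen with earlier results of these data known, so this contrast is a description and not an independent test. None of the 18 was below 0.67 in both lines, where 0.522% of all gene probe sets were. In single lines, 6 of the 18 passed 1.5 in Huh7 (2.85% of all) and 8 passed it in Hep3B (4.0% of all). At any size, 14 of the 18 were higher in both lines and 1 was lower, against 16783 and 13181 of the 54613. The median log2 ratio of the metallothionein probe sets was 0.74 in Huh7 and 0.79 in Hep3B. All 6 probe sets that passed carry the suffix _x_at, which marks probes that can bind related transcripts, so they are not 6 separate readings and the share of each gene is uncertain. Without _x_at probe sets, 0 of the remaining 9 passed. Among all gene probe sets with this suffix, 23 of 4207 passed 1.5 in both lines (0.547%).

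MT1X, the last gene of the cluster, had the largest ratios. Its probe set 208581_x_at read 1337 in ATO-treated Huh7 cells and 413 in NC Huh7 cells, and 340.1 in ATO-treated Hep3B cells against 92.0 in NC Hep3B cells. Within each line the ATO profile was the higher, and both Huh7 profiles lay above both Hep3B profiles. Huh7 had a ratio of 3.24 and Hep3B of 3.69, and the log2 ratio averaged 1.79 ± 0.14 (SD, n = 2 lines). Only 0.0861% of gene probe sets had a higher ratio in Huh7 and 0.115% in Hep3B. The other MT1X probe set, 204326_x_at, read 675 and 234 in ATO and NC Huh7 cells, and 123 and 43.9 in ATO and NC Hep3B cells. It gave ratios of 2.88 and 2.81 and kept the same order of the 4 profiles.

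MT2A, the metallothionein 2 gene a widely expressed family member, showed a change of similar size. Probe set 212185_x_at read 1739 with ATO and 579 in NC in Huh7, and 519 with ATO and 192 in NC in Hep3B. The 2 Huh7 profiles again stood above the 2 Hep3B profiles, and ATO above NC within each line. The ratios were 3.00 and 2.71, and their log2 averaged 1.51 ± 0.11 (SD, n = 2 lines). In arbitrary intensity units the increase was 1159.9 in Huh7 and 327 in Hep3B.

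MT1H differed more between the lines. Probe set 206461_x_at read 579.6 in ATO-treated Huh7 cells, against 244 in NC Huh7 cells, and 215 in ATO-treated Hep3B cells, against 118 in NC Hep3B cells. The ratio was 2.37 for Huh7 and 1.83 for Hep3B, and the log2 ratio averaged 1.06 ± 0.27 (SD, n = 2 lines). Both lines moved in the same direction, and the order of the profiles was that of MT1X and MT2A.

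MT1F and MT1G passed the threshold by less. MT1F probe set 217165_x_at read 199 with ATO and 109 in NC in Huh7, and 99.99 with ATO and 57.9 in NC in Hep3B, giving ratios of 1.82 and 1.73. MT1G probe set 204745_x_at read 270.3 with ATO and 162 in NC in Huh7, and 144 with ATO and 90.7 in NC in Hep3B, giving ratios of 1.67 and 1.58. Of the 6 probe sets past 1.5 in both lines, that of MT1G lay closest to the threshold. Each of these genes had another probe set that did not pass. MT1F probe set 213629_x_at lay near the array median, between 15.1 and 18.5, with a ratio of 1.07 in either line. MT1G probe set 210472_at lay below the array median in every profile, between 4.77 and 5.92, and was higher with ATO in Huh7 (ratio 1.19) but not in Hep3B (ratio 0.910).

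MT1E was split between its probe sets and between the lines. Probe set 212859_x_at read 113 with ATO and 102 in NC in Huh7, and 146 with ATO and 81.7 in NC in Hep3B. The ATO-treated Hep3B profile was the highest of the 4, and the ratio was 1.11 in Huh7 and 1.78 in Hep3B. The other probe set, 216336_x_at, read 112 and 94.3 in ATO and NC Huh7 cells, and 86.1 and 69.8 in ATO and NC Hep3B cells, with ratios of 1.19 and 1.23. Higher ATO values were thus seen in both lines with both probe sets, but past 1.5 only in Hep3B and with 212859_x_at. MT1M was read by a single dim probe set, 217546_at, between 3.16 and 3.85, with ratios of 1.02 and 1.19, so that its level could not be followed here. The 2 metallothionein probe sets without the _x_at suffix, for MT1G and MT1M, were the 2 below the array median.

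**Figure D2:**
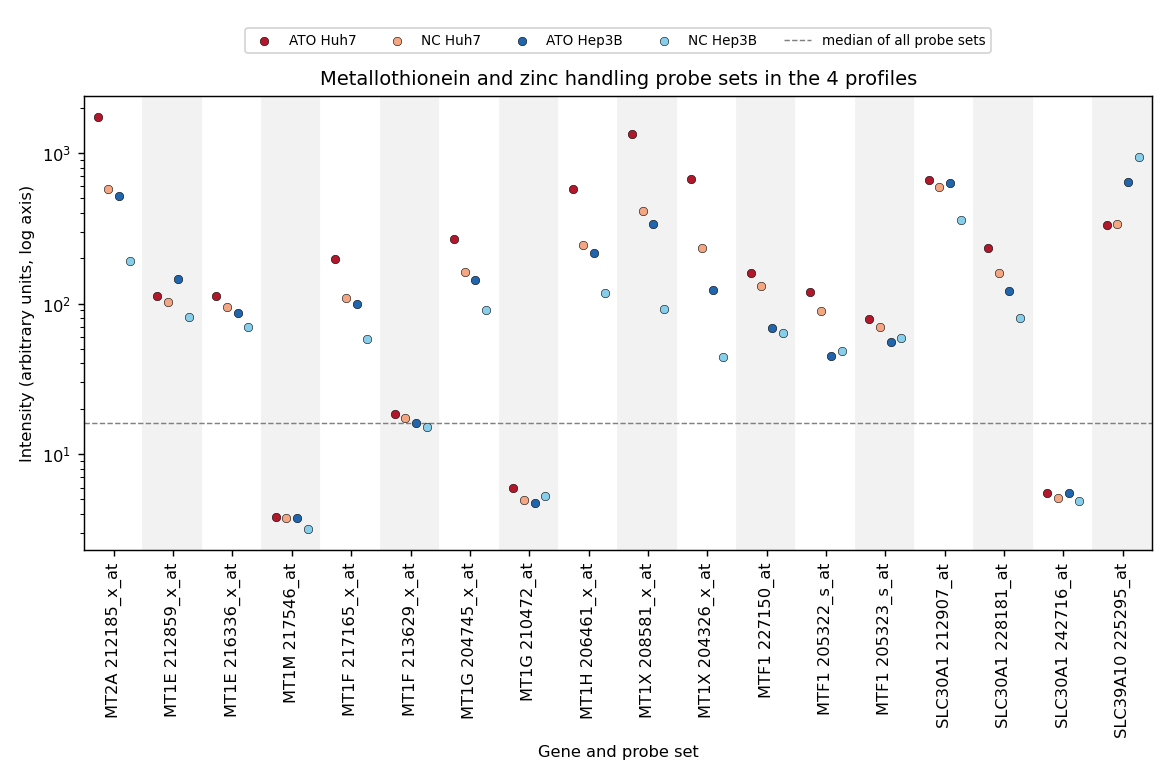
Intensity of the 18 probe sets in each profile on a log axis in arbitrary units, 1 point per profile, with the median of all probe sets (15.99) as a dashed line. The ATO point lies above the NC point of the same line for MT1X, MT2A, MT1H, MT1G (204745_x_at) and MT1F, whereas SLC39A10 is lower with ATO in Hep3B.

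Along chromosome 16 the RefSeq order is MT2A, MT1E, MT1M, MT1F, MT1G, MT1H and MT1X, with pseudogenes and genes without a probe set of their own in between. MT4 and MT3 precede MT2A and read lower with ATO in both lines, without passing 0.67. Both lay near the array median of 15.99, MT4 between 14.1 and 22.5 and MT3 between 19.4 and 24.9, so their direction is uncertain. Among the 7 genes from MT2A to MT1X, the largest ratios were those of the first and the last, and those of MT1E, MT1F and MT1G were smaller. MT1H, next to MT1X in this list, had the next largest mean ratio. This ranking rests on _x_at probe sets, so the share of each gene is uncertain and no trend by position can be read from it. MT1M, read only by a dim probe set, could not be placed.

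**Figure D3:**
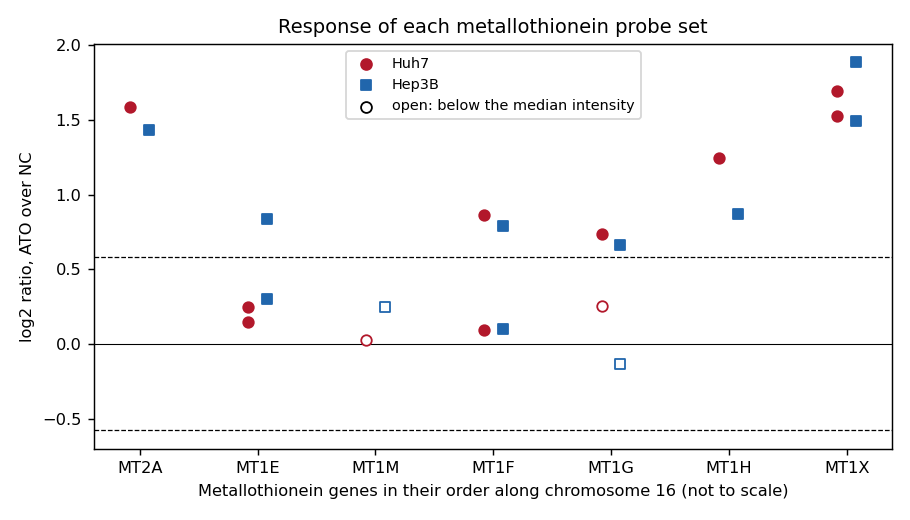
The log2 ratio of ATO over NC of the 11 metallothionein probe sets, placed in gene order along chromosome 16, with Huh7 as circles, Hep3B as squares and open symbols for probe sets below the array median. Dashed lines mark ratios of 1.5 and 0.67. MT2A and MT1X lie highest in both lines, and MT1E is past 1.5 in Hep3B alone. Every filled symbol is an _x_at probe set, which can bind related transcripts.

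The lines also differed in level, irrespective of treatment. Of the 9 metallothionein probe sets at or above the array median, 8 had the same order, with ATO Huh7 highest, then NC Huh7, then ATO Hep3B, and NC Hep3B lowest. NC Huh7 cells thus read above ATO-treated Hep3B cells. The exception was MT1E probe set 212859_x_at. Huh7 over Hep3B exceeded 1.5 for 6 of the 9 in ATO cells, with a background of 12.4% of all gene probe sets, and for 6 of the 9 in NC cells, with a background of 13.2%. For MT1X probe set 204326_x_at the ratio of Huh7 over Hep3B was 5.47 with ATO and 5.34 in NC, and for MT2A it was 3.35 with ATO and 3.02 in NC. The response itself, on the log2 scale, differed between lines by under 0.2 for 7 of the 9 probe sets and by at most 0.68 (MT1E 212859_x_at). The difference in level between the lines was not tested. The difference in response leaves no residual degree of freedom with 1 profile per condition and line.

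MTF1, the sensor, stayed within both thresholds. Probe set 227150_at read 159 with ATO and 131 in NC in Huh7, and 68.4 with ATO and 63.9 in NC in Hep3B, with ratios of 1.21 and 1.07. Probe set 205322_s_at read 119 and 89.4 in ATO and NC Huh7 cells, and 44.5 and 48.5 in ATO and NC Hep3B cells, with ratios of 1.33 and 0.918. Probe set 205323_s_at read 78.8 and 69.8 in ATO and NC Huh7 cells, and 55.7 and 59.2 in ATO and NC Hep3B cells, with ratios of 1.13 and 0.941. All 3 probe sets were higher in Huh7 than in Hep3B under both conditions.

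The exporter SLC30A1 had higher values with ATO in both lines, without passing 1.5 in both. Probe set 212907_at read 665 with ATO and 598 in NC in Huh7, and 629 with ATO and 359 in NC in Hep3B. NC Hep3B was the low profile here and the other 3 lay close together, so that the ratio was 1.11 in Huh7 and 1.75 in Hep3B. Probe set 228181_at read 233 with ATO and 159 in NC in Huh7, and 120.4 with ATO and 80.7 in NC in Hep3B. Its ratios of 1.46 and 1.49 fell just short of the threshold in both lines, the closest of all members outside it. Probe set 242716_at lay below the array median, between 4.92 and 5.56, with ratios of 1.09 and 1.11.

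The importer SLC39A10 was the 1 member probe set lower with ATO in both lines. Probe set 225295_at read 334 with ATO and 339 in NC in Huh7, and 638 with ATO and 934 in NC in Hep3B. The Huh7 profiles were nearly equal and the Hep3B profiles were not, at ratios of 0.987 and 0.682, the Hep3B ratio lying just above 0.67. In contrast to MTF1, both Hep3B profiles were above both Huh7 profiles.

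**Figure D4:**
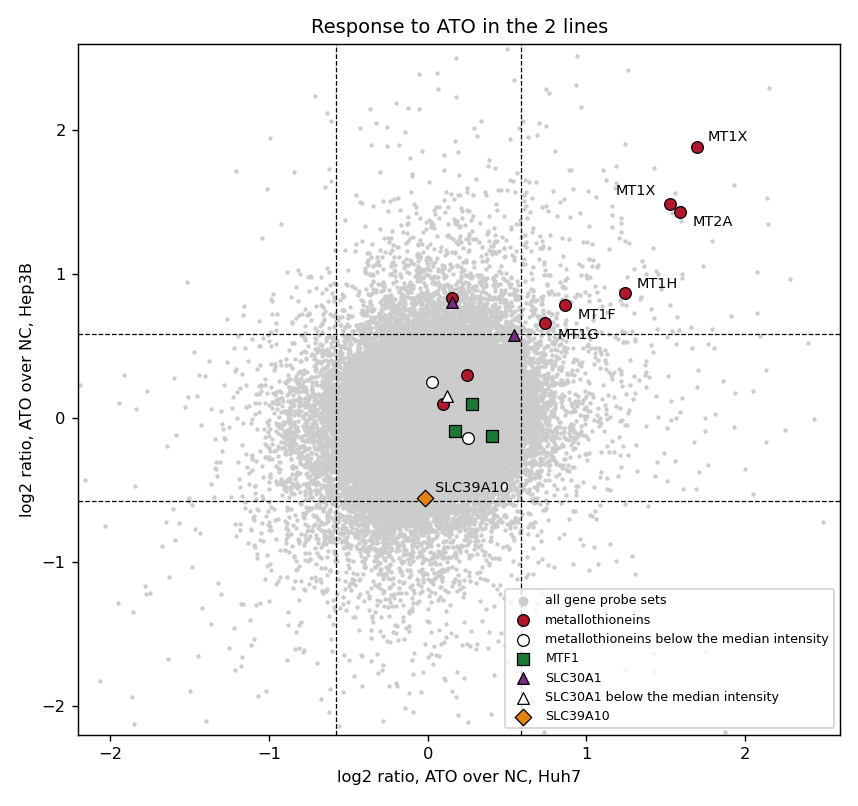
The log2 ratio of ATO over NC in Huh7 against that in Hep3B, with gray points for all gene probe sets (59 lie outside the axes), colored symbols for the 10 genes and dashed lines at ratios of 1.5 and 0.67. The 6 probe sets of MT1X, MT2A, MT1H, MT1F and MT1G lie past 1.5 in both lines, 1 SLC30A1 probe set lies just inside the upper lines, and MTF1 and SLC39A10 lie away from the upper right.

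Across the 2 lines taken as replicates, limma on log2(intensity + 16) called 0 of the 54613 gene probe sets at an adjusted p of 0.05 (0%), and 0 of the 18. At an unadjusted p under 0.05 it gave 4675 probe sets, 8.56% of all, among them 8 of the 18, all higher with ATO. The methods' t-test called 0 after adjustment, and 336 of all probe sets and 0 of the 18 at its own threshold of 0.01. For MT1X probe set 208581_x_at the limma estimate was a log2 fold change of 1.69 with an SE of 0.05 and an adjusted p of 0.576. The fit left 1 residual degree of freedom. With an intensity trend in the prior, MT1X 208581_x_at alone of the 18 was called, at an adjusted p of 0.0260, and over all alternatives its adjusted p lay between 0.0260 and 1.0. MT2A had an adjusted p of 0.0524 with that trend.

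A further list of 13 symbols held other metallothionein genes and pseudogenes, with the testis protein TESMIN beside them. Of the 13 symbols, 4 were read by a probe set of their own, and 1 of these passed a threshold in both lines. MT1HL1, a gene similar in sequence to MT1H, read 849 with ATO and 414 in NC in Huh7, and 362 with ATO and 174 in NC in Hep3B. Its ratios of 2.05 and 2.09 were past 1.5 in both lines, and its probe set, 211456_x_at, also carries the _x_at suffix. MT3, known as the brain metallothionein, MT4, known from stratified epithelia, and the testis protein TESMIN read lower with ATO in both lines without passing 0.67. TESMIN had the lowest mean of these, at ratios of 0.705 and 0.779. The values of MT3 and MT4 lay near the array median, so their direction is uncertain.

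Of the other zinc and copper handling genes, none passed a threshold in both lines. Among 9 zinc exporters of the SLC30 family, 3 were below 0.67 in Huh7 (2.81% of all gene probe sets) and 0 in Hep3B (4.01% of all). Among the 3, SLC30A8 was read by a dim probe set. Of the 28053 gene probe sets at or above the array median, 1150 were below 0.67 in Huh7 and 1710 in Hep3B. SLC30A10, known chiefly as a manganese exporter, had the lowest mean, at 43.6 with ATO against 82.4 in NC in Huh7 and 246 with ATO against 357 in NC in Hep3B, ratios of 0.529 and 0.689. SLC30A2 had the highest mean, at 1.10 and 1.43, but its values lay near the array median, between 15.1 and 21.5. Among 13 zinc importers of the SLC39 family, 2 were below 0.67 in Huh7 and 0 in Hep3B, beside the same shares of 2.81% and 4.01%. SLC39A14, a zinc and iron importer of hepatocytes, had the lowest mean, with ratios of 0.600 and 0.927, and SLC39A3 had the highest, at 1.01 and 1.24. Among 11 copper handling genes, the plasma ferroxidase CP had the lowest mean, at 606 with ATO and 565 in NC in Huh7 against 212 with ATO and 625 in NC in Hep3B, ratios of 1.07 and 0.339. The copper importer SLC31A1 had the highest, at 1.09 and 1.34. The median log2 ratio was -0.11 in Huh7 and 0.05 in Hep3B for the exporters, -0.11 and -0.11 for the importers, and -0.04 and 0.08 for the copper genes, beside 0.02 and 0.02 over all gene probe sets. By limma 0 genes of these lists had an adjusted p under 0.05. An unadjusted p under 0.05 was found for 2 of the 4 genes read in the list of other metallothioneins with TESMIN. It was also found for 1 exporter, 1 importer and 1 copper gene. Over all gene probe sets the share was 8.56%. For the exporters (1 of 9), importers (1 of 13) and copper genes (1 of 11) the count is near that share. The 2 of 4 were MT1HL1, higher with ATO, and TESMIN, lower with ATO, so they do not show a shared rise. The exporter SLC30A10, the importer SLC39A11 and the copper gene ATP7B were all lower.

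**Figure D5:**
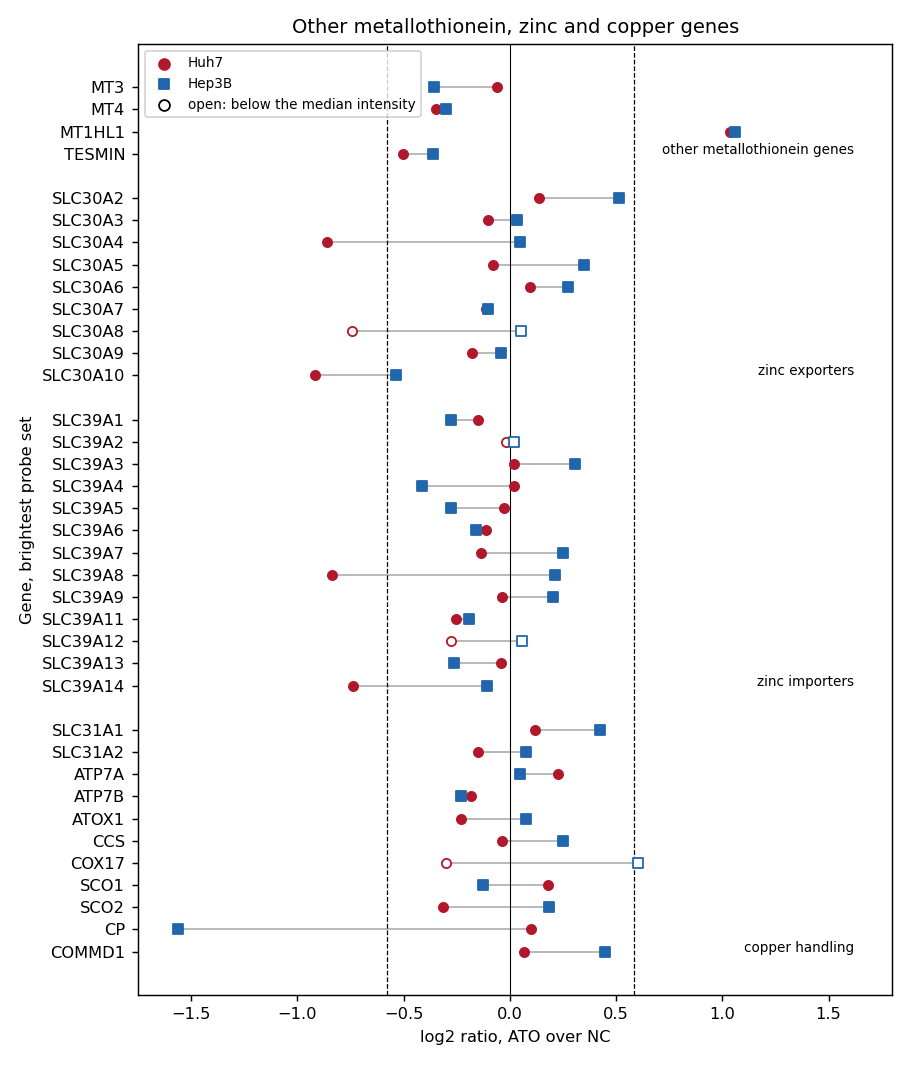
The log2 ratio of ATO over NC in Huh7 (circles) and Hep3B (squares) for the brightest probe set of each other listed gene. The lists are the other metallothioneins with TESMIN, the zinc exporters and importers, and the copper handling genes. Open symbols mark probe sets below the array median, and dashed lines mark ratios of 1.5 and 0.67. MT1HL1 alone is past 1.5 in both lines, and CP is the lowest point, at a ratio of 0.339 in Hep3B.

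Among 20534 probe sets of a single gene symbol at or above the array median in all 4 profiles, those whose pair of log2 ratios lay nearest to the median pair of the metallothionein probe sets, by Euclidean distance over the 2 lines, belonged to TUFT1, PLAC8, SP100, PROSER2 and DUSP13B. TUFT1 was nearest, at a distance of 0.01 log2 units and ratios of 1.65 and 1.73. It read 169 with ATO and 102 in NC in Huh7, and 303 with ATO and 174 in NC in Hep3B, so that its Hep3B profiles were above those of Huh7 under either condition. PLAC8 had ratios of 1.65 and 1.68, SP100, a nuclear body protein, 1.69 and 1.67, PROSER2 1.70 and 1.67, and DUSP13B 1.61 and 1.77. With so few profiles the likeness describes these 4 profiles only.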

How the data were processed

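Total RNA of Huh7 and Hep3B cells was biotin-labeled and read on Affymetrix U133 Plus 2.0 arrays, 1 profile per condition and line. The authors scanned the arrays with a GeneChip scanner, preprocessed them in simpleaffy (Robust Multi-array Average, logs, then quartile normalization) and deposited an intensity for each probe set. These intensities are on a linear scale. How they left the log scale, and how many arrays stand behind each column, are not given in the sources used here. No detection call was used, so a probe set was called dim when its mean lay below the median of all probe sets (15.99).

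Groups were taken from the labels. By the platform annotation, 41097 probe sets had 1 gene symbol, 1801 several, and 11777 were unlisted. All 10 symbols were found in RefSeq. The 62 control probe sets were left out of all counts, leaving 54613. Ratios of ATO over NC were computed within each line, with the thresholds of the study (1.5 and 0.67). Since a line had 1 profile per condition, the main test was limma 3.58.1 in R 4.3.3 (with data.table, 1.17.8) on log2(intensity + 16) with treatment and line as terms, 1 residual degree of freedom, and Benjamini-Hochberg adjustment over all 54613 at 0.05. The p-values measure the spread between the 2 lines only. The offset understates the change of dim probe sets. Other steps used Python 3.11.15, numpy 2.4.6, pandas 2.3.3 and matplotlib 3.10.9. The ratio rule and the limma fit were also tested on simulated data, with the noise taken from the limma fit to the real data. With a much lower noise, limma found 98 to 100% of the changed probe sets. At the fitted noise limma made no calls there, whereas the ratio rule found 98 to 100% of them. The changes were set at log2 1 or 2 in size, past the ratio thresholds, so smaller changes were not covered. They were simulated on log2(intensity + 16), whereas the main ratio rule has no offset. The absence of limma calls therefore does not show that intensities were unchanged. The ratio rule also passed 0.814% of the unchanged probe sets there, both directions together, so passing it does not by itself show a change.

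The text names all probe sets of the 10 genes, any gene of the zinc and copper lists past a threshold in both lines, the gene of each list with the highest and lowest mean log2 ratio, and the 5 genes nearest in pattern. The genes and lists were chosen with earlier results of these data known. Other genes of each list were read by the brightest probe set with 1 symbol. Alternatives were quantile normalization, median centring, dim or _x_at probe sets left out, thresholds of 2 and 0.5, counting by gene, offsets of 0, 16 and 64, an intensity trend in the prior, no line term, and the t-test of the methods.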

Additional observations from a re-analysis of the deposited data

Results flagged for a closer look

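MTF1 had 2 probe sets whose ATO over NC change ran in opposite directions in the lines, higher in Huh7 and lower in Hep3B. The log2 response in Huh7 minus that in Hep3B was 0.53 for probe set 205322_s_at and 0.26 for probe set 205323_s_at. With 1 profile per condition and line the difference was not tested. The remaining MTF1 probe set, 227150_at, was higher with ATO in both lines, with a difference of 0.18.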

How the results depend on the processing

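The count of 6 of 18 probe sets past 1.5 in both lines was also 6 under quantile normalization, under median centring and without dim probe sets. It was 5 with an offset of 16 and 5 of 10 when each gene was read by its brightest probe set. With thresholds of 2 and 0.5 it was 3, and without probe sets ending in _x_at it was 0 of 9. The count below 0.67 was 0 under every alternative tried. The metallothionein median in Huh7 was 0.70 with median centring, 0.87 without dim probe sets, 0.14 without _x_at probe sets (2 dim probe sets remained, by construction) and 0.68 with an offset of 16. In Hep3B it was 0.74 with quantile normalization, 0.83 without dim probe sets, 0.0559 without _x_at probe sets and 0.65 with an offset of 16. In limma 1 of the 18 was called with an intensity trend in the prior and 0 in the other settings. Over all gene probe sets, limma called 3 without dim probe sets, 6 without an offset and 6 with the trend, against 0. Past the ratio thresholds in both lines were 151 higher and 134 lower with an offset of 16, against 289 and 285, and 246 and 330 with median centring. Of the 36 single log2 ratios, 1 changed sign under median centring (MT1M in Huh7) and 0 under quantile normalization or the offset. Leaving out a line leaves limma with no residual degree of freedom, so it was not run and the ratios of each line stand in its place. The labels carry no replicate numbers, and the line term pairs ATO with NC. Without it, 0 of the 18 had an unadjusted p under 0.05, against 8 with it. The cause of these changes was not tested where none is given, and 1 profile per condition and line is the main limit on precision.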
